A study of Mus musculus with 56 samples.

Results

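The contact activation and kinin genes examined here were Kng1, Kng2, F11, F12 and Serping1, 5 of the 45513 gene identifiers counted in mouse liver and 5 of the 14314 genes that passed the filter on low counts. They were selected on measured values of these same data. The comparison behind each choice is not recorded, and it is assumed here that Kng1 and Kng2 were chosen for their levels in ponatinib 10 mg/kg as compared with control and nilotinib 30 mg/kg, Serping1 for its level in ponatinib 10 mg/kg as compared with imatinib, and F11 and F12 as genes of the same pathway. Comparisons that involve ponatinib 10 mg/kg, nilotinib 30 mg/kg or imatinib are therefore given as descriptions without a test. Tests were made for the lower doses and for L-NAME, where the control mice are still those assumed to have been used in the selection.

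All mice were female APOE*3Leiden.CETP transgenics, 9 to 14 weeks of age when taken into the study and thus older when the livers were taken. These animals carry a human apolipoprotein E variant and human cholesteryl ester transfer protein, and were fed a Western-type diet with 0.15% cholesterol. There were 7 groups with 8 mice sequenced in each. The control group received the vehicle by gavage. Ponatinib at 3 or 10 mg/kg and nilotinib at 10 or 30 mg/kg were given 1 time per day with vehicle at the second gavage, and imatinib at 150 mg/kg was given 2 times per day. These 3 drugs are BCR-ABL1 tyrosine kinase inhibitors used in chronic myeloid leukemia, and the study compared their cardiovascular side effects. The L-NAME group received this nitric oxide synthase inhibitor, which raises blood pressure, at 0.12 to 0.2% in the drinking water. Whole liver was sequenced, so fewer cells of a type and less RNA per cell cannot be told apart.

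The contact system starts when factor XII, encoded by F12, is activated on a negatively charged surface. Active factor XII activates factor XI, the product of F11, which feeds the intrinsic coagulation pathway, and activates plasma prekallikrein. Plasma kallikrein cuts high molecular weight kininogen and releases bradykinin, a short peptide that dilates vessels and raises their permeability through the endothelial nitric oxide pathway. The kininogens also bind prekallikrein and factor XI in plasma. The C1 inhibitor, encoded by Serping1, blocks active factor XII, kallikrein and factor XI as well as the first proteases of the complement cascade, and its deficiency causes hereditary angioedema. Hepatocytes are the main source of all these plasma proteins. Mice, unlike humans, have a pair of kininogen genes, Kng1 and Kng2, which lie side by side.

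The part of each kininogen transcript that encodes bradykinin is shown because bradykinin is the product of the pathway and both genes can supply it. The sequences below are coding strand from GRCm38 with the GENCODE vM21 annotation, with the 27 bases that encode bradykinin in capitals and 45 bases on each side. In Kng1 (Kng1-201, + strand) the capitals lie at chr16:23078989-23079015 and in Kng2 (Kng2-202, - strand) at chr16:22988281-22988307, both in the coding part of exon 10 of 10.
Kng1: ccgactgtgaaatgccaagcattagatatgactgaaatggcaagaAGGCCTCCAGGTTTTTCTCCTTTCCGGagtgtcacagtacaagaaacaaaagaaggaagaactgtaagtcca
Kng2: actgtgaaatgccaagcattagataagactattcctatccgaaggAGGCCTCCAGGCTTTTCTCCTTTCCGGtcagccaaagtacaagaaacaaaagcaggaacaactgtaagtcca

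The capitals were identical at 26 of 27 bases. The single difference was T12C, counted from the first capital with the base of Kng1 first, at the third position of a codon for glycine in both genes, so both encode the same bradykinin. Of the 45 bases after the capitals, 38 were identical. Over the longest coding sequences (1983 bases for Kng1 and 1932 for Kng2), 1797 of 1928 aligned bases were identical (93.2%), as were 548 of 643 aligned residues (85.2%), and the longest exact run was 116 bases. Of all 50-base words in the annotated transcripts, 557 occurred in both genes, which is 17.2% of those of Kng1 and 19.4% of those of Kng2. Reads from such shared words could have been discarded, since the deposited counts keep reads without a unique alignment in a row apart from all genes. Whether any were placed on either gene depends on alignment settings that are not given in the sources used here. The separate values of Kng1 and Kng2 are uncertain to that extent. Bradykinin was encoded by 3 of the 4 coding transcripts of Kng1 and by 3 of the 6 of Kng2, and counts per gene do not separate high from low molecular weight kininogen.

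Kng1 (ENSMUSG00000022875, chr16:23057865-23082078, + strand) and Kng2 (ENSMUSG00000060459, chr16:22985854-23029482, - strand) were neighbours on chromosome 16. F11 (ENSMUSG00000031645) lay at chr8:45241174-45262031, F12 (ENSMUSG00000021492) at chr13:55417958-55426793 and Serping1 (ENSMUSG00000023224) at chr2:84765387-84775444, all on the - strand. Expression is given as normalised CPM, the reads of a gene scaled to a common library size after correction for library composition. Divided by the exon length of each gene, the median level over the 56 mice was 775.8 CPM per kb for Kng1, 331.7 for F12, 324.6 for Serping1, 153.5 for Kng2 and 23.89 for F11. Kng1 was therefore the most abundant transcript of the 5 per length and F11 the least. On the CPM scale Kng1 ranked 40th, Serping1 144th, F12 168th, Kng2 294th and F11 2622nd of the 14314 genes. Counting error was small for 4 of the genes, with at least 1732 reads in every mouse, whereas F11 had as few as 210.

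Libraries held 5342379 to 97473341 reads on genes (median 7570238), with the highest total in an L-NAME mouse. The share of reads outside annotated genes differed between groups, with a mean of 7.97% in control, 8.53% in ponatinib 3 mg/kg, 9.75% in nilotinib 10 mg/kg and 10.04 to 11.04% in the other 4 groups. After subtraction of group means this share correlated weakly with the members (Pearson r from -0.30 for F11 to -0.12 for Kng2 over the 56 mice). No pair of libraries was identical.

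The liver identity of the samples was checked first. The summed level of 6 hepatocyte markers (Alb, Apob, Cps1, Tat, Ttr and Hnf4a) was 72640 to 127800 CPM in control, 110600 to 134700 CPM in ponatinib 3 mg/kg, 68900 to 99870 CPM in nilotinib 10 mg/kg and 72960 to 103300 CPM in L-NAME. Defining pancreatic acinar genes were close to absent, with Prss2 and Pnlip at 0 in all mice.

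**Figure D1:**
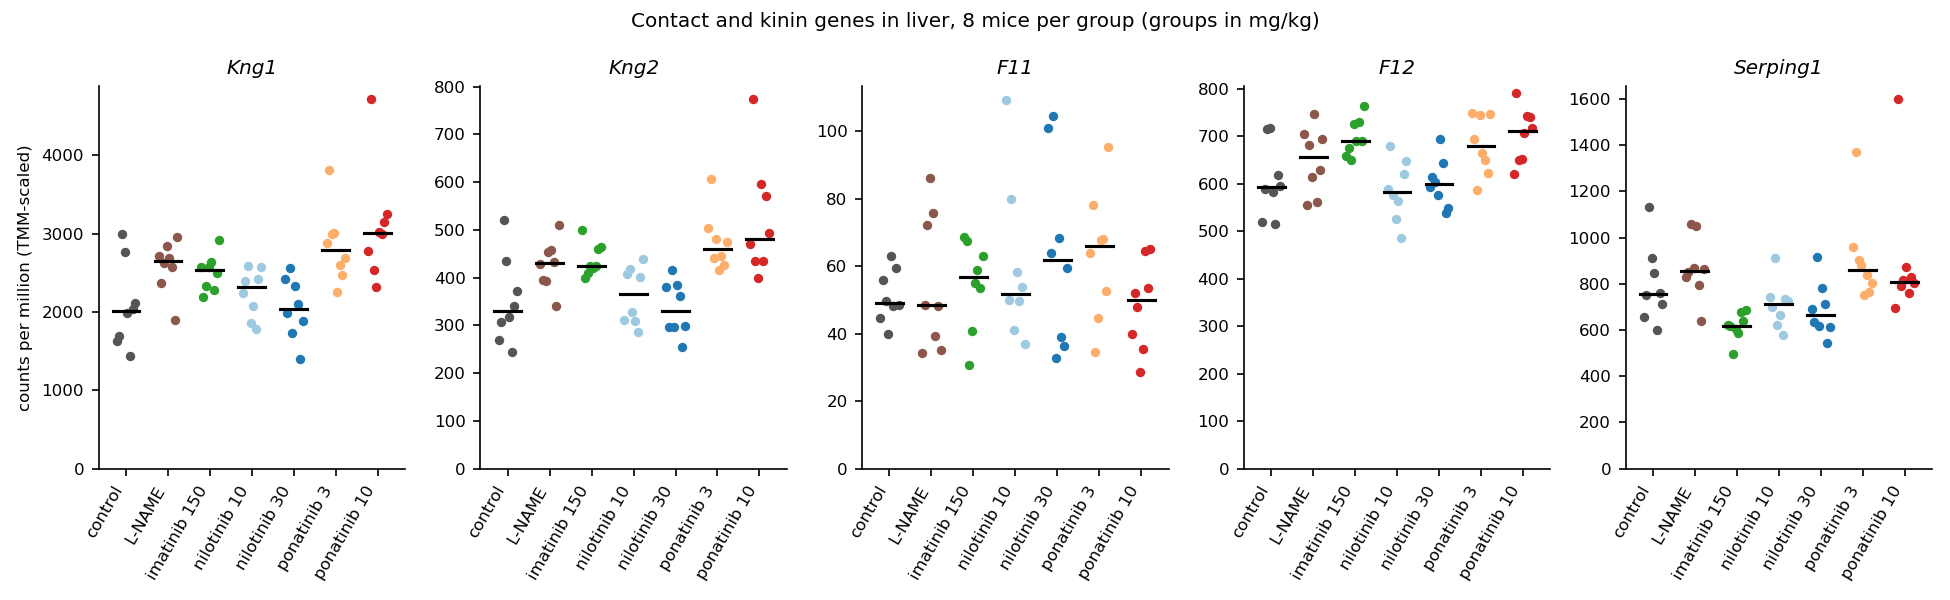
Normalised CPM of Kng1, Kng2, F11, F12 and Serping1 in each of the 56 mice, by group. Each point is a mouse and each line the median of 8 mice. The ranges of all groups overlap for F11, and the highest Serping1 points are mouse #2 of ponatinib 10 mg/kg (1601 CPM) and mouse #2 of ponatinib 3 mg/kg (1370 CPM).

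Kng1 and Kng2, the substrates of kallikrein and precursors of bradykinin, were higher after the low dose of ponatinib than in control. Kng1 was 1441 CPM in the lowest, 2014 in the median and 2992 in the highest control mouse, and 2261, 2788 and 3817 CPM in ponatinib 3 mg/kg. Kng2 was 243.5, 329.4 and 521.1 CPM in control and 416.4, 460.2 and 605.8 CPM in ponatinib 3 mg/kg. All 8 treated mice were above the control median for both genes, but the groups overlapped, with 3 treated mice above every control mouse for Kng1 and 1 for Kng2.

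In the edgeR quasi-likelihood fit over all genes, Kng1 rose 1.364-fold (log2 fold change 0.45 ± 0.13 (SE), adjusted p = 0.17). Kng2 rose 1.352-fold (0.43 ± 0.12, adjusted p = 0.17). These were the only 2 of 5 members called at the cut-off of the study, an unadjusted p below 0.01, which is the meaning of called throughout, beside 3.14% of all genes in this comparison. After adjustment over all 14314 genes none of the members passed 0.05 in this fit, whereas Kng1 and Kng2 both did with DESeq2 (adjusted p = 0.0393 and 0.0374) and with limma voom with sample quality weights (0.0121 and 0.0105). Neither did with plain limma voom (0.0917 for both). In an exact permutation test of the 8 against 8 mice, 1 of 30 made on the members, p was 0.0087 for Kng1 and 0.00591 for Kng2, two-sided. With the counts of both paralogs summed before the fit, which joins reads placed on either gene but does not recover any that were discarded, kininogen differed by 0.45 on the log2 scale (adjusted p = 0.164 with edgeR).

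In L-NAME, Kng1 was 1902, 2654 and 2952 CPM and Kng2 341.7, 430.6 and 510.1 CPM in the lowest, median and highest mouse. These medians lay between those of control and ponatinib 3 mg/kg. The log2 difference from control was 0.31 ± 0.13 for Kng1 (adjusted p = 0.107, edgeR) and 0.28 ± 0.12 for Kng2 (adjusted p = 0.136), so 0 of 5 members were called by edgeR in a comparison in which 14.0% of all genes were, with 2 below an unadjusted p of 0.05. DESeq2 and limma voom each called 1, Kng1, which also passed 0.05 after adjustment (adjusted p = 0.0474 and 0.0432). With sample quality weights limma voom called 0, while Kng2 passed 0.05 after adjustment (adjusted p = 0.0493). The count also depended on single mice, with 2 called without control #3 and 1 without control #4 or without L-NAME #7. All 8 L-NAME mice were above the control median for Kng2, and 7 of 8 for Kng1.

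Nilotinib 10 mg/kg gave kininogen levels near those of control. Kng1 was 1786, 2316 and 2582 CPM and Kng2 286.1, 365.4 and 438.1 CPM. The log2 differences from control were 0.11 (95% interval -0.14 to 0.36) and 0.05 (-0.19 to 0.29). None of the 5 members was called by edgeR, DESeq2 or either limma voom fit, and 0 had an unadjusted p below 0.05, beside 5.97% of all genes called by edgeR.

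The direct comparison of the low doses used none of the groups assumed to have been used in the selection. Kng2 was higher in ponatinib 3 mg/kg than in nilotinib 10 mg/kg by 0.39 ± 0.12 on the log2 scale (1.307-fold, adjusted p = 0.0952, edgeR). Kng1 was higher by 0.34 ± 0.13 (1.267-fold, adjusted p = 0.173). For each of the kininogens 6 of 8 ponatinib mice were above every nilotinib mouse. The exact permutation p was 0.000932 for Kng2 and 0.00591 for Kng1, two-sided. Together with Serping1, 3 of 5 members were called, all higher in ponatinib, beside 5.68% of all genes, and none passed 0.05 after adjustment with edgeR, DESeq2 or limma voom. This count rested on single mice: it fell to 0 without ponatinib 3 mg/kg #2 (Kng1 0.27, adjusted p = 0.343; Kng2 0.33, adjusted p = 0.205, edgeR) and to 0 without nilotinib 10 mg/kg #6, and to 1 without any of 5 other mice (nilotinib 10 mg/kg #1, #4 and #5, ponatinib 3 mg/kg #1 and #4). Only Kng2 remained called with the share of reads outside genes as a covariate (0.36, adjusted p = 0.175). The doses differ in mg/kg, and these 2 groups also differed in the hepatocyte markers. Of these, 3 of 6 were called higher in ponatinib, Alb, Cps1 and Tat (adjusted p = 0.0428, 0.0713 and 0.0227, edgeR). The part of these markers in the result was not tested.

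Neither kininogen was called between a low dose and L-NAME. The log2 difference of ponatinib 3 mg/kg from L-NAME was 0.14 for Kng1 (95% interval -0.11 to 0.39) and 0.15 for Kng2 (-0.09 to 0.40), and 0 of 5 members were called by edgeR, DESeq2 or either limma voom fit, with 0 at an unadjusted p below 0.05, beside 8.01% of all genes. For nilotinib 10 mg/kg against L-NAME it was -0.20 for Kng1 (-0.45 to 0.05) and -0.23 for Kng2 (-0.48 to 0.01). For Kng2, 4 nilotinib mice were below every L-NAME mouse, and for Kng1 2 were. The exact permutation p was 0.0622 for Kng1 and 0.0368 for Kng2. In ponatinib 3 mg/kg against L-NAME the exact permutation p was 0.249 and 0.102. Here too 0 of 5 members were called by edgeR, DESeq2 or either limma voom fit, beside 2.12% of all genes, and only Serping1 was below an unadjusted p of 0.05 with edgeR.

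The values assumed to have led to the choice of the kininogens are given as a description. In ponatinib 10 mg/kg, Kng1 was 2322, 3009 and 4720 CPM and Kng2 400.1, 481.7 and 774.9 CPM in the lowest, median and highest mouse, the highest medians of the 7 groups. The log2 difference from control was 0.57 ± 0.13 for Kng1 and 0.57 ± 0.12 for Kng2, and 0.46 and 0.47 without mouse #2, which had the highest level of both genes. The cut-off was passed by 2 of 5 members there, beside 15.0% of all genes, and since this comparison is taken as the basis of the selection nothing is read from that count. From nilotinib 30 mg/kg the differences were 0.59 ± 0.13 and 0.63 ± 0.12, and from ponatinib 3 mg/kg 0.12 ± 0.13 and 0.14 ± 0.12.

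The order of the 7 group medians was the same for both kininogens, with ponatinib 10 mg/kg, ponatinib 3 mg/kg and L-NAME at the top. Imatinib followed with 2538 CPM for Kng1 and 424.6 CPM for Kng2, then nilotinib 10 mg/kg, nilotinib 30 mg/kg (2043 and 330.2 CPM) and control. The ranges of every pair of neighbouring groups in this order overlapped. As compared with control the log2 difference was 0.26 ± 0.13 and 0.32 ± 0.12 in imatinib and -0.02 ± 0.13 and -0.06 ± 0.12 in nilotinib 30 mg/kg.

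**Figure D2:**
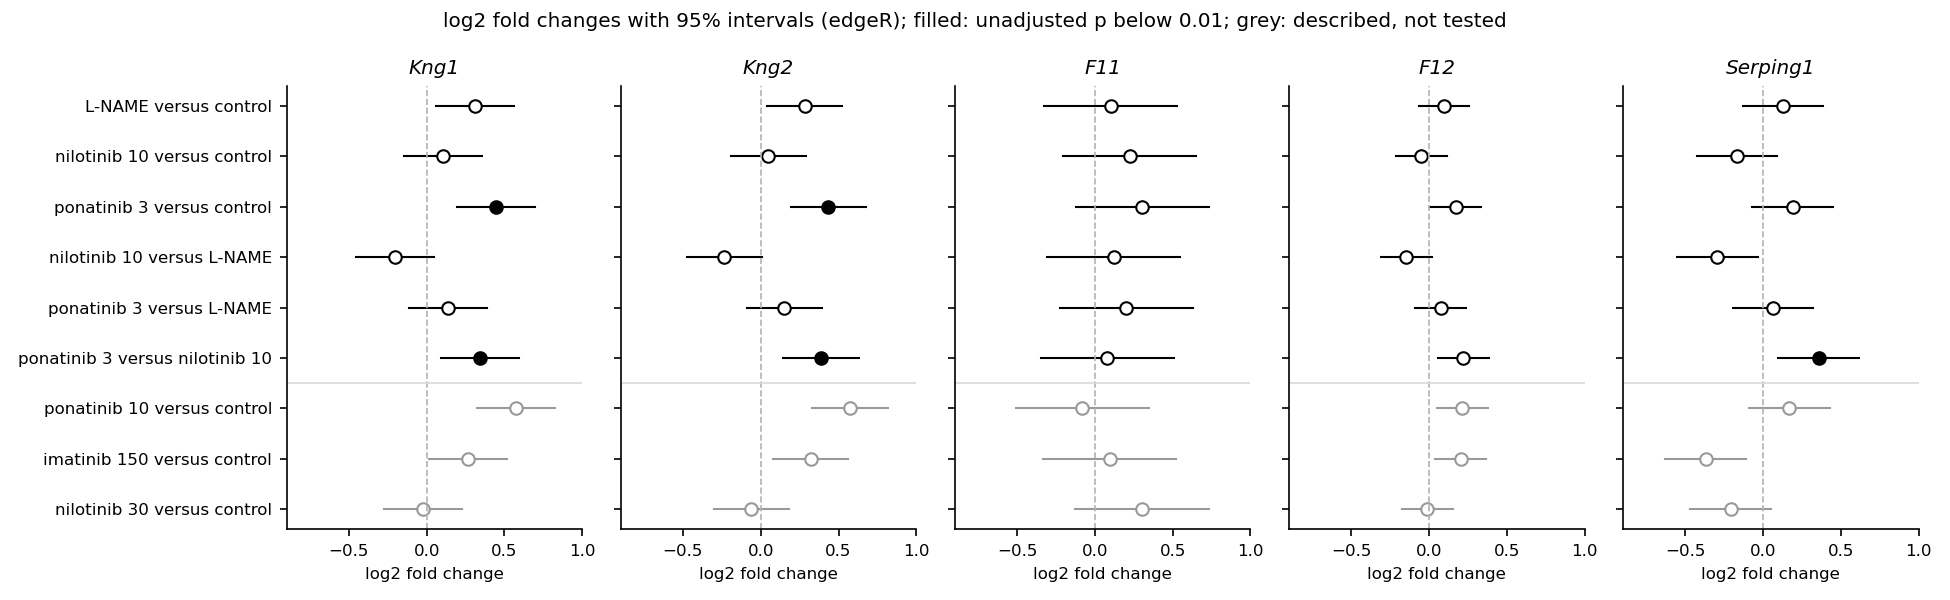
Log2 fold change of each member in the 6 tested comparisons and in the 3 comparisons with control that are described only, with 95% intervals from the edgeR fit. Filled points have an unadjusted p below 0.01, open points do not, and grey points were not tested because their groups are taken to have been used to select the members. The filled points are Kng1 and Kng2 in ponatinib 3 mg/kg against control, and Kng1, Kng2 and Serping1 in ponatinib 3 mg/kg against nilotinib 10 mg/kg.

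No difference in the balance between the kininogen genes was detected. The ratio of Kng1 to Kng2 CPM ranged from 5.06 to 7.18 over the 56 mice, with a median of 5.945. Group medians were 5.946 in control, 5.983 in L-NAME, 6.103 in nilotinib 10 mg/kg and 5.826 in ponatinib 3 mg/kg. The exact permutation p against control was 0.484, 0.203 and 0.855 for these 3 groups, two-sided. The 3 groups assumed to have been used in the selection had medians of 5.577 (imatinib), 6.099 (nilotinib 30 mg/kg) and 5.883 (ponatinib 10 mg/kg).

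F12, the protease zymogen that starts the pathway, varied least of the 5, with a highest over lowest level of 1.628 across all mice as compared with 3.183 to 3.823 for the others. In control mice F12 was 514.3, 592.2 and 717.4 CPM (lowest, median, highest), and in ponatinib 3 mg/kg 586.2, 679.6 and 748.6 CPM. The log2 difference was 0.17 ± 0.08 (adjusted p = 0.487) and was not called by edgeR. With sample quality weights limma voom called it (0.21, adjusted p = 0.0538). In nilotinib 10 mg/kg F12 was 485.3, 582.2 and 680.2 CPM. All 8 mice of ponatinib 3 mg/kg were above that median, and the log2 difference of 0.22 ± 0.08 was not called by edgeR (adjusted p = 0.179). F12 was called there by DESeq2 and by limma voom without and with sample quality weights (adjusted p = 0.115, 0.13 and 0.0707). Its exact permutation p was 0.00979, two-sided. L-NAME mice had 554.5, 655.3 and 746.1 CPM (0.10 ± 0.08 against control, adjusted p = 0.546). As a description, the median was 711.8 CPM in ponatinib 10 mg/kg, 689.3 CPM in imatinib and 598.7 CPM in nilotinib 30 mg/kg, or 0.21, 0.20 and -0.01 from control on the log2 scale.

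F11, the link to the intrinsic coagulation pathway, was the most variable member and was not called in any tested comparison. Control mice had 39.98, 49.07 and 63.07 CPM and ponatinib 3 mg/kg 34.66, 65.8 and 95.35 CPM. The log2 difference was 0.30 with a 95% interval of -0.12 to 0.73 (adjusted p = 0.691, edgeR), although 5 of 8 treated mice were above every control mouse. Levels varied widely between mice of a group, with 34.18 to 86.02 CPM in L-NAME, 36.86 to 109.3 CPM in nilotinib 10 mg/kg, 32.72 to 104.5 CPM in nilotinib 30 mg/kg and 30.61 to 68.68 CPM in imatinib. F11 was also the only member whose described difference between the ponatinib doses was negative by more than its error, -0.38 ± 0.22 for 10 against 3 mg/kg, the median being 49.99 CPM at the high dose.

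Serping1, which encodes the inhibitor of these proteases, was not called against control in any tested group. It was 599.3, 754.0 and 1132 CPM in control, 751.0, 859.9 and 1370 CPM in ponatinib 3 mg/kg, 638.0, 857.6 and 1059 CPM in L-NAME and 576.7, 713.3 and 910.4 CPM in nilotinib 10 mg/kg. None of the 3 treated groups was called against control (log2 0.19, 0.13 and -0.17, with adjusted p = 0.681, 0.637 and 0.645, edgeR). Between the low doses it was higher in ponatinib by 0.36 ± 0.13 (1.281-fold, adjusted p = 0.164, exact permutation p = 0.00622), with all 8 ponatinib mice above the nilotinib median and 2 above every nilotinib mouse. Without mouse #2 of ponatinib 3 mg/kg, which stood apart from its group, the difference was 0.25 (adjusted p = 0.396, edgeR) and was no longer called. Nilotinib 10 mg/kg was lower than L-NAME by 0.29 on the log2 scale (adjusted p = 0.538), which is not a call.

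Imatinib had the lowest Serping1 levels of the 7 groups, 497.3, 619.2 and 687.5 CPM. All 8 imatinib mice were below the control median, and the described log2 difference was -0.37 ± 0.13. Of the 5 members 1 passed the cut-off there, beside 12.9% of all genes, and nothing is read from that count. All 8 ponatinib 10 mg/kg mice (695.3, 808.3 and 1601 CPM) were above all 8 imatinib mice, a log2 difference of 0.54 ± 0.13 that is taken as the basis of its selection. Against control, ponatinib 10 mg/kg differed by 0.17 ± 0.13, and by -0.00 without mouse #2. In nilotinib 30 mg/kg Serping1 was 543.8, 663.8 and 918.2 CPM, or -0.21 ± 0.13 from control, and 0 of 5 members passed the cut-off there, beside 9.35% of all genes, from which nothing is read either.

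**Figure D3:**
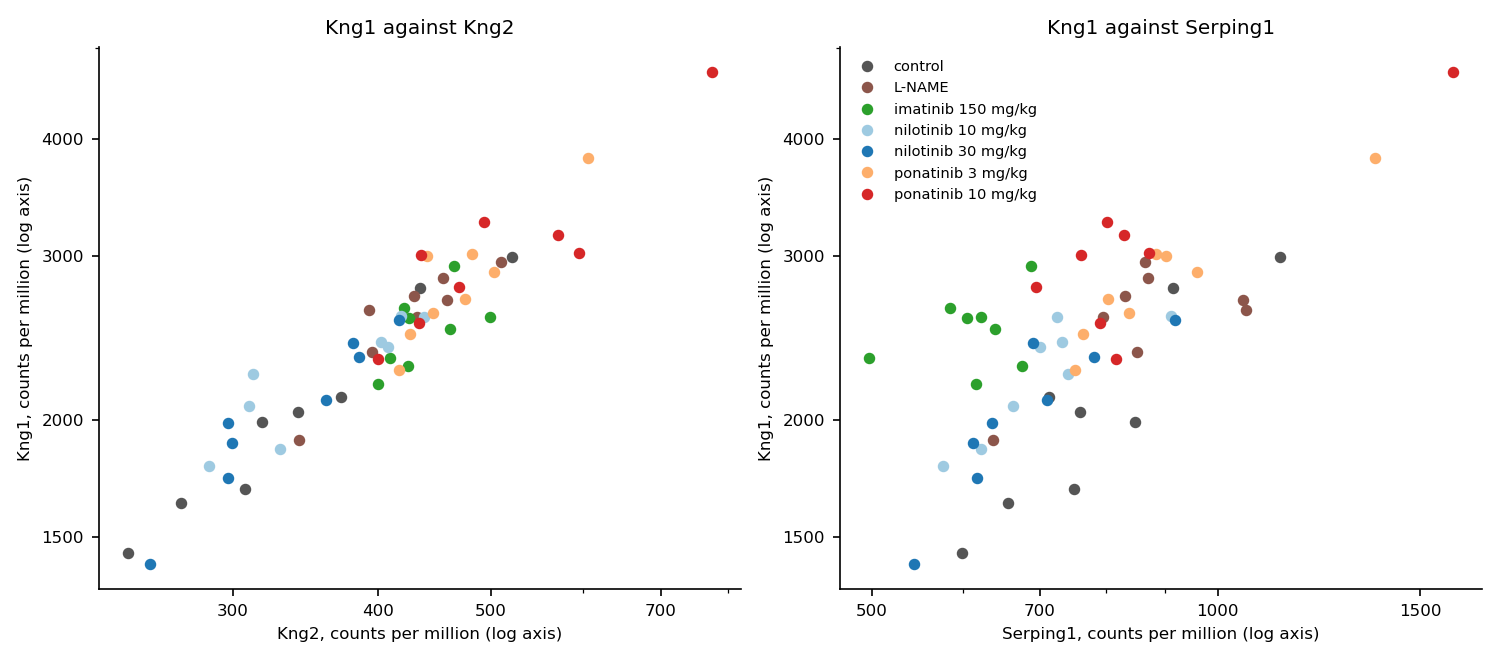
Kng1 against Kng2 (left) and Kng1 against Serping1 (right) in normalised CPM on log axes, each point a mouse colored by group. Kng1 and Kng2 lie along a single line in all groups, with a ratio between 5.06 and 7.18, whereas the imatinib mice lie at low Serping1 (497.3 to 687.5 CPM) for their Kng1.

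The ratio of summed kininogen to Serping1 was computed after these values had been seen and is a description. Its lowest, median and highest values were 2.662, 2.996 and 3.508 in control, 2.845, 3.648 and 4.005 in L-NAME, 3.296, 3.589 and 4.158 in nilotinib 10 mg/kg and 3.229, 3.72 and 3.95 in ponatinib 3 mg/kg. It was 3.043, 3.475 and 4.045 in nilotinib 30 mg/kg, 3.34, 4.316 and 4.677 in ponatinib 10 mg/kg and 4.008, 4.936 and 5.511 in imatinib. Control had the lowest median of all groups, and every imatinib mouse was above every control mouse.

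Within groups, mice with more of a kininogen also had more Serping1 and F12. After subtraction of the group mean of log2 CPM, Kng1 and Kng2 correlated with Pearson r = 0.917 over the 56 mice (Spearman rho = 0.880, permutation p = 1e-05, the smallest that 100000 permutations can give, adjusted p = 1.67e-05 over the 10 pairs). The same adjusted p was reached by Kng1 and Serping1 (r = 0.824, rho = 0.756), Kng2 and Serping1 (0.789, 0.732), Kng2 and F12 (0.672, 0.646), Kng1 and F12 (0.665, 0.676) and F12 and Serping1 (0.573, 0.612). The part of shared reads in the value for Kng1 and Kng2 was not tested.

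F11 had lower coefficients. Its r was 0.345 with Serping1 (rho = 0.390, permutation p = 0.0098, adjusted p = 0.014), 0.267 with Kng1 (adjusted p = 0.0608), 0.199 with F12 (permutation p = 0.156) and 0.168 with Kng2 (permutation p = 0.211). With 2 mice left out, the ones farthest from the median of the first gene, r was 0.900 for the kininogen pair, 0.790 and 0.738 for Serping1 with Kng1 and Kng2, and 0.302 for F11 with Serping1. With the share of reads outside genes removed these were 0.915, 0.821, 0.786 and 0.302. Without the 2 ponatinib mice that stood apart (#2 of each dose) they were 0.896, 0.776, 0.736 and 0.360.

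**Figure D4:**
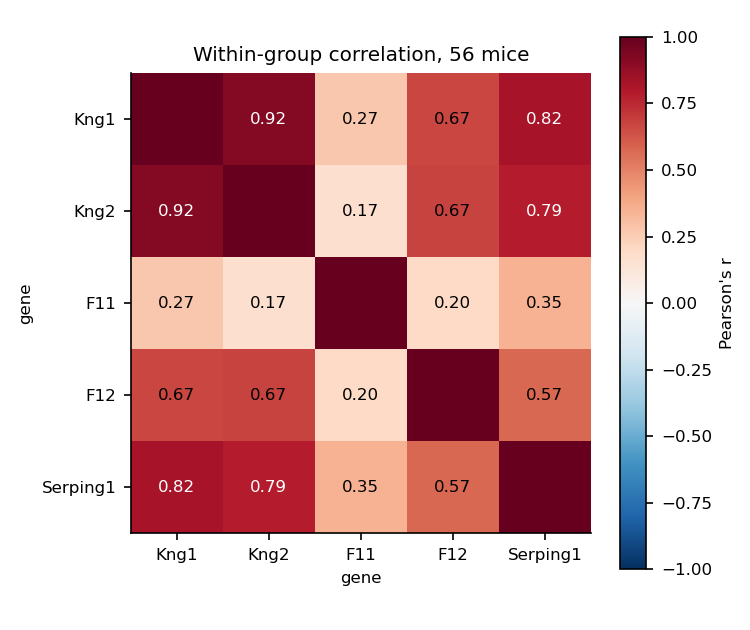
Pearson r between members over 56 mice, of log2 CPM after subtraction of the group mean. Kng1, Kng2, Serping1 and F12 correlate with each other (0.573 to 0.917), and F11 with none of them above 0.345.

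The genes most like each member over the 56 mice, after the same subtraction, were mostly other secreted or hepatocyte genes. Kng1 was followed by Fgl1 (r = 0.847), Rnase4 (0.841) and Tfr2 (0.829), and Kng2 by Tfr2 (0.855), Vtn (0.841) and Cd302 (0.826). No gene outside the members was more like Kng1 than Kng2 was, or the reverse, among 14309 genes. Of these genes, 3 were more like Kng1 than Serping1 was, and 44 more than F12 was. For Kng2 these numbers were 7 and 25. Serping1 was most like Cd302 (0.878), the fibrinogen chains Fgb (0.878) and Fgg (0.843). F12 was most like F2, the gene of prothrombin (0.801), Ndrg2 (0.771) and Slc27a5 (0.762). F11 had no close match, with Serpina1e (0.592), Serpina3k (0.585) and Neb (0.560) as the nearest. Outside the members, 131 genes were more like F11 than Serping1 was, and 538 were more like Serping1 than F11 was. The mice share libraries between genes, so these values describe the same 56 samples.

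The lists of other pathway genes were also written with earlier results known. Of the proteases (Klkb1, Klk1, Prcp and F9), Prcp and F9 were tested and neither was called by edgeR in the 6 tested comparisons, with at most 1 at an unadjusted p below 0.05. Klkb1, the gene of prekallikrein, was not analysed here. The kinin receptors Bdkrb1 and Bdkrb2 did not pass the filter, with a median summed level of 0 in every group and at most 1.157 CPM in any mouse, so the receptors were not measurable in whole liver at this depth.

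The kininases degrade bradykinin, and 10 of 11 were tested. Of all genes, edgeR called 14.0% in L-NAME, 5.97% in nilotinib 10 mg/kg and 3.14% in ponatinib 3 mg/kg against control. It called 5.68% between the low doses, 8.01% in ponatinib 3 mg/kg against L-NAME and 2.12% in nilotinib 10 mg/kg against L-NAME. These shares stand beside the counts of this list and of the lists below. Against control, L-NAME lowered 3 and raised 0 (Anpep -0.40, adjusted p = 0.0141; Dpp4 -0.35, adjusted p = 0.0161; Ece1 -0.60, adjusted p = 0.000676, edgeR), with a list median of -0.33 as compared with 0.02 for all genes. Nilotinib 10 mg/kg likewise lowered 3 and raised 0 (Cpn2 -0.46, adjusted p = 0.102; Anpep -0.33, adjusted p = 0.122; Ece1 -0.56, adjusted p = 0.0123, edgeR), with a median of -0.18 against 0.01. In ponatinib 3 mg/kg 0 were called with edgeR and 1 had an unadjusted p below 0.05, Cpn1, the catalytic subunit of carboxypeptidase N (0.27, adjusted p = 0.326), with a median of -0.11 against -0.01. Ponatinib 3 mg/kg was therefore higher than nilotinib 10 mg/kg in 2 kininases, Cpn2 (0.42, adjusted p = 0.151) and Ece1 (0.35, adjusted p = 0.143), and higher than L-NAME in Anpep (0.34, adjusted p = 0.0786) and Ece1 (0.39, adjusted p = 0.0581). Between nilotinib 10 mg/kg and L-NAME 0 were called by edgeR, with 0 at an unadjusted p below 0.05.

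Of 9 other inhibitors that act on contact proteases, 7 were tested. The shares of all genes called against control were again 14.0% in L-NAME, 5.97% in nilotinib 10 mg/kg and 3.14% in ponatinib 3 mg/kg. L-NAME lowered 3 (Pzp, an alpha macroglobulin, -0.64, adjusted p = 0.0034; App -0.63, adjusted p = 0.00211; Aplp2 -0.68, adjusted p = 1.88e-05, edgeR) and nilotinib 10 mg/kg lowered Pzp (-0.57, adjusted p = 0.0413) and Aplp2 (-0.47, adjusted p = 0.00887). App and Aplp2 encode membrane proteins with a protease inhibitor domain that can block factor XIa. Ponatinib 3 mg/kg lowered App (-0.48, adjusted p = 0.203) and Aplp2 (-0.30, adjusted p = 0.265), whereas Pzp was at 0.01 (adjusted p = 0.993). Pzp was 0.58 higher in ponatinib 3 mg/kg than in nilotinib 10 mg/kg (adjusted p = 0.0386) and 0.65 higher than in L-NAME (adjusted p = 0.00954), and Aplp2 0.38 higher than in L-NAME (adjusted p = 0.0182). Serpinc1, the gene of antithrombin, was not called in these 6 comparisons, and nilotinib 10 mg/kg against L-NAME called 0 of the 7 with edgeR, 2 having an unadjusted p below 0.05. The list median in L-NAME, nilotinib 10 mg/kg and ponatinib 3 mg/kg against control was 0.01, -0.25 and 0.09, beside 0.02, 0.01 and -0.01 for all genes.

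Serping1 also inhibits complement proteases, of which 4 of 6 were tested and 1, Masp1, was called. Masp1 was lower than control in L-NAME (-1.58, adjusted p = 7.36e-05) and nilotinib 10 mg/kg (-1.29, adjusted p = 0.00846, edgeR). In ponatinib 3 mg/kg its difference from control was -0.42 (adjusted p = 0.622), and it was higher than in L-NAME (1.16, adjusted p = 0.00785) and in nilotinib 10 mg/kg (0.87, adjusted p = 0.0732). Of the surface proteins that bind kininogen, C1qbp and Plaur were tested and Krt1 was at 0 in all mice. Plaur, the urokinase receptor, had a median of only 0.4891 CPM in ponatinib 3 mg/kg. It was lower there than in nilotinib 10 mg/kg (3.707 CPM, -2.29 ± 0.74, adjusted p = 0.0982) and L-NAME (4.041 CPM, -2.25 ± 0.74, adjusted p = 0.0694). Such low levels rest on few reads per mouse.

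Among 9 transcription factors of hepatocytes and the interferon response, Hnf4a was lower in L-NAME than in control (-0.47, adjusted p = 0.00883, edgeR) and higher in ponatinib 3 mg/kg than in L-NAME (0.45, adjusted p = 0.0303). Cebpa (0.38, adjusted p = 0.14) was higher in ponatinib 3 mg/kg than in nilotinib 10 mg/kg. Against control, ponatinib 3 mg/kg called 0 of the 9 with edgeR, with 0 at an unadjusted p below 0.05. Serping1 is known as an interferon-responsive gene. Of 11 interferon-stimulated genes only Igtp was called in any of the 6 comparisons (nilotinib 10 mg/kg against control, -0.98, adjusted p = 0.0747, with medians of 62.8 and 61.86 CPM). Igtp also differed from control by -0.79 in L-NAME and -0.69 in ponatinib 3 mg/kg. The summed level of the 11 genes reached 1597 CPM in a control mouse, beside a control median of 446.0 CPM. The part of that mouse in these differences was not tested.

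In every group except imatinib, the mouse with the highest summed level of the acute-phase genes also had the highest Serping1. Of 14 such genes 1 was higher in ponatinib 3 mg/kg than in control (Fgb, 0.53, adjusted p = 0.316) and 3 were higher than in nilotinib 10 mg/kg (Fga 0.74, adjusted p = 0.0866; Fgb 0.56, adjusted p = 0.148; Itih4 0.95, adjusted p = 0.018, edgeR). Against L-NAME, Fga was higher (0.69, adjusted p = 0.0765) and Saa3 lower (-1.99, adjusted p = 0.00665). L-NAME raised Hp (0.72, adjusted p = 0.0544) and nilotinib 10 mg/kg lowered Itih4 (-0.68, adjusted p = 0.08). Mouse #2 of ponatinib 3 mg/kg had the highest summed level of these genes in its group, 75980 CPM against 25010 to 34420 CPM in the other 7, and mouse #2 of ponatinib 10 mg/kg had 113300 CPM against 22190 to 34000 CPM. Their part in the level of Serping1 in these mice was not tested.

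**Figure D5:**
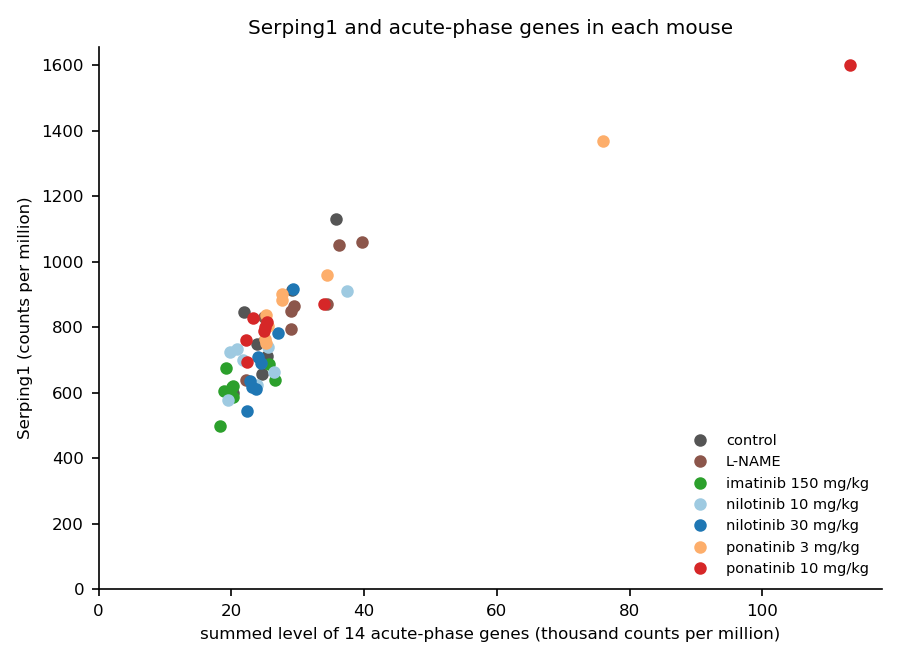
Serping1 in normalised CPM against the summed CPM of 14 acute-phase genes, each point a mouse colored by group. Mouse #2 of ponatinib 3 mg/kg (75980 CPM of acute-phase genes, 1370 CPM of Serping1) and mouse #2 of ponatinib 10 mg/kg (113300 and 1601 CPM) lie far from the other mice of their groups.

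Without mouse #2 of ponatinib 3 mg/kg, Kng1 and Kng2 were still called against control (0.38, adjusted p = 0.327, and 0.38, adjusted p = 0.312, edgeR), and Serping1 differed by 0.08 (adjusted p = 0.91). Markers of other cell types were also called between these groups, and higher or lower means called before adjustment here. Of all genes, edgeR called 3.14% in ponatinib 3 mg/kg against control, 5.68% between the low doses and 8.01% in ponatinib 3 mg/kg against L-NAME. All 4 erythroid genes were higher in ponatinib 3 mg/kg than in control (adjusted p = 0.14 to 0.183, edgeR). Of these, 3 were higher than in nilotinib 10 mg/kg (adjusted p = 0.0725 to 0.148). Their summed level was 164.8 to 1256 CPM in ponatinib 3 mg/kg, 120.2 to 405.5 CPM in control and 141.7 to 509.1 CPM in nilotinib 10 mg/kg. Of 6 sinusoidal endothelial markers 1 was lower in ponatinib 3 mg/kg than in control (Kdr, adjusted p = 0.237, edgeR). There were 4 lower than in nilotinib 10 mg/kg (adjusted p = 0.018 to 0.0685) and 3 lower than in L-NAME (0.0119 to 0.124). Sums were 85.39 to 199.3 CPM in ponatinib 3 mg/kg, 107.6 to 369.6 CPM in control and 202.9 to 292.2 CPM in nilotinib 10 mg/kg. Of 6 Kupffer cell markers, Clec4f and Marco were higher in ponatinib 3 mg/kg than in control (adjusted p = 0.261 and 0.29, edgeR). Clec4f was also higher than in control in L-NAME (adjusted p = 0.00884) and nilotinib 10 mg/kg (adjusted p = 0.104). Of 7 stellate cell or fibroblast markers 2 were lower in ponatinib 3 mg/kg than in control and 2 lower than in nilotinib 10 mg/kg, and Col1a1 was lower in L-NAME.

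Among the hepatocyte markers ponatinib 3 mg/kg raised Ttr against control (adjusted p = 0.316, edgeR). L-NAME raised Ttr (adjusted p = 0.0546) and lowered 4 of 6 (0.00222 to 0.00883), beside 14.0% of all genes called. Nilotinib 10 mg/kg lowered 2 of 6 (adjusted p = 0.0241 and 0.0379), beside 5.97%. Ponatinib 3 mg/kg was higher than L-NAME in 5 of 6 (adjusted p = 0.00685 to 0.0421), beside 8.01%. The 4 cholangiocyte, 3 mesothelial and 1 tested adipocyte marker were not called. Of 6 lymphocyte or neutrophil markers only S100a9 was, being lower in nilotinib 10 mg/kg than in L-NAME (adjusted p = 0.455, edgeR). The part of these cell types in the kininogen result was not tested.

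Within 100 kb of the members lay 28 other tested genes, of which 0 were called in ponatinib 3 mg/kg against control with edgeR and 5 had an unadjusted p below 0.05, beside 3.14% of all genes called, so a count of 0 is near the background. Near Kng2 and Kng1, the related cystatin family gene Hrg differed by 0.15 (adjusted p = 0.764), Ahsg by 0.15 (0.699), Fetub by 0.35 (0.357) and Eif4a2 by 0.24 (0.332). Within groups Hrg (r = 0.784), Fetub (0.649) and Ahsg (0.484) correlated with Kng2 and Eif4a2 did not (0.156), while the neighbours of F11 (0.025 to 0.193), F12 (-0.263 to 0.256) and Serping1 (-0.291 to 0.298) did so weakly. In the other comparisons 5 of the 28 were called in L-NAME against control (14.0% of all genes), 4 in nilotinib 10 mg/kg against control (5.97%), 3 in ponatinib 3 mg/kg against L-NAME (8.01%), 1 between the low doses (5.68%) and 0 in nilotinib 10 mg/kg against L-NAME (2.12%).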

How the data were processed

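Poly(A) RNA of 56 livers was sequenced. Per the labels the deposited values are raw read counts per gene, made by the authors with TopHat2 2.0.14, Bowtie2 2.1.0, SAMtools 0.1.18 and HTSeq 0.6.1p1 on GRCm38. The strand setting and the alignment settings for reads with several matches are not given in the sources used here. Reads without a unique alignment have a row of their own in the deposited counts, outside all genes. Gm6493, a pseudogene inside Kng2 on the same strand, has 0 exon bases inside exons of Kng2 and at most 385 reads. Rows that name no gene were left out. Of 45513 identifiers 44671 had a symbol in GENCODE vM21.

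Counts were fitted with edgeR 4.0.16 (R 4.3.3, TMM factors, quasi-likelihood test) in a single model of 7 groups after the filter filterByExpr, which left 14314 genes, 5 of 5 members included. A gene was called at an unadjusted p below 0.01, the cut-off of the study. Adjusted p is the Benjamini-Hochberg value over all tested genes. Exact permutation tests (12870 arrangements) and correlations used log2(CPM + 0.5) and SciPy 1.17.1. Comparisons share control samples. Each mouse is a separate animal, and the labels give no sequencing batch. The members, the lists and the rules for naming genes were chosen with earlier results of these data known: all members, genes of the lists that were called or needed for their role, tested neighbours within 100 kb, and the 3 genes most like each member. The script was tested on simulated data. Alternatives were RLE and upper-quartile factors, no filter, DESeq2 1.42.0, limma 3.58.1 voom with and without sample quality weights, only the mice compared, the share of reads outside genes as a covariate, adjusted p for calls, summed kininogen counts, and leaving out each mouse.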

Additional observations from a re-analysis of the deposited data

Results flagged for a closer look

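In 35 sets of 8 mice, 1 for each member and group, 2 held a mouse far from the others, both for Serping1. Chance flags about 1 in 20 such sets, so the number of flagged sets by itself is close to what chance gives. That number leaves out how far each mouse lay from the others. Whether distances of this size arise by chance was not tested. Mouse #2 of ponatinib 3 mg/kg had 1370 CPM as compared with 751.0 to 959.2 CPM in the other 7. Mouse #2 of ponatinib 10 mg/kg had 1601 CPM as compared with 695.3 to 871.7 CPM in the other 7. Both mice also had the highest summed acute-phase level of their group, 75980 and 113300 CPM, and the part of this in the Serping1 values was not tested.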

How the results depend on the processing

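No paired analysis was possible because the labels number the mice of each group without pairing them across groups. The limits are those of bulk liver: 8 mice per group, and as few as 210 reads on F11 in a mouse. Sequence shared by Kng1 and Kng2 and cell-type markers called between groups are further limits. Of 252 refits of the tested fold changes under other settings, 230 kept direction and side of the threshold, 9 lost the call, 8 gained one and 5 turned direction, and of 1680 refits without a mouse these numbers were 1615, 50, 10 and 5. The 30 refits of the correlations kept their side of an adjusted p of 0.05, although F11 with Serping1 went from 0.014 to 0.0424 with the share of reads outside genes removed. The turns were all in differences that were not called. With sample quality weights F11 became -0.0170 in nilotinib 10 mg/kg against control and -0.0221 against L-NAME. With the covariate for reads outside genes, ponatinib 3 mg/kg became -0.0263 for F11 and -0.0387 for Serping1 against L-NAME, and -0.0402 for F11 against nilotinib 10 mg/kg. Without each mouse in turn, F11 ranged from -0.0232 to 0.177 in L-NAME against control, from -0.0541 to 0.242 in nilotinib 10 mg/kg against L-NAME and from -0.0272 to 0.257 between the low doses, Kng2 from -0.0146 to 0.152 in nilotinib 10 mg/kg against control, and Serping1 from -0.0456 to 0.109 in ponatinib 3 mg/kg against L-NAME.

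The number of members called in L-NAME against control was 1, in place of 0, with upper-quartile factors, DESeq2, limma voom and the covariate, and 0 to 2 without each mouse. In ponatinib 3 mg/kg against control it was 0 at an adjusted p below 0.05 and 3 with sample quality weights, in place of 2, and 2 without any mouse. The adjusted p ranged over the alternatives from 0.0121 to 0.171 for Kng1 and from 0.0105 to 0.171 for Kng2. Between the low doses it was 1 with RLE factors, upper-quartile factors and the covariate, 0 at an adjusted p below 0.05, 2 with DESeq2 and 4 with limma voom, in place of 3, and 0 to 4 without each mouse. There the adjusted p ranged from 0.123 to 0.286 for Kng1, from 0.0683 to 0.175 for Kng2 and from 0.1 to 0.304 for Serping1. The cause of these shifts was not tested.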
